A study of Mus musculus with 19 samples.

Results

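Genes of 2 conjugation pathways, glucuronidation and sulfation, were followed in mouse liver after exposure to dibenz[a,h]anthracene (DB[a,h]A), a polycyclic aromatic hydrocarbon. The list holds 10 genes: the UDP-glucuronosyltransferases Ugt1a1, Ugt1a6a, Ugt1a6b, Ugt2b1, Ugt2b5 and Ugt2b36, the enzyme Ugdh, and the sulfotransferases Sult1a1, Sult1d1 and Sult5a1. Their probes were found by the RefSeq accession that the array gives each probe, which yielded 12 of 55681 probes for 9 of the 10 genes. No probe carried an accession of Ugt1a1, so this gene was not analysed here. The animals were 19 male mice, 10 weeks old, of the transgenic strain 40.6, a strain with a bacterial reporter gene that serves to count mutations. They received 0, 6.25, 12.5 or 25 mg/kg DB[a,h]A, with 5, 5, 4 and 5 animals per dose, and liver was taken 3 days after exposure. The labels give the exposure as a span of days, and name neither the vehicle nor the route. Each animal had 1 array. Its liver RNA carried the red dye, Cy5, and was hybridised beside a universal reference from 11 cell lines that carried Cy3, the green dye. A value is the log2 ratio of liver over reference on the same array. The dyes were never swapped, so levels of different probes were not compared with each other.

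Both pathways make fat-soluble compounds easier to excrete. UDP-glucuronosyltransferases (UGTs) sit in the endoplasmic reticulum and transfer glucuronic acid from UDP-glucuronic acid, which Ugdh makes from UDP-glucose. Sulfotransferases (SULTs) in the cytosol transfer a sulfonate group from the donor PAPS. Polycyclic aromatic hydrocarbons are oxidised in liver to phenols and diols, which are substrates of both families. Ugt1a6 is a textbook target of the aryl hydrocarbon receptor (AhR), which binds such hydrocarbons, and Ugdh and several UGTs are known targets of the oxidative stress factor Nrf2.

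Of the 9 genes with a probe, none passed the test for a change at any dose. Few probes of the whole array passed: 0.0578% of 29415 at 25 mg/kg, and 0% at 12.5 and 6.25 mg/kg. The group of animals at each dose overlapped the controls for each of the 12 probes. Over all tested probes, groups without overlap made up 0.962% to 1.74% by dose. Sult1d1 had the largest positive change at 25 mg/kg, 0.30 on the log2 scale with a standard error (SE) of 0.40. Sult5a1 and Ugt2b1 had the largest negative ones, -0.49 (SE 0.44) and -0.49 (SE 0.38). The brighter of the Ugt1a6b probes stood 0.18 higher (SE 0.14).

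The array names several genes of each family that lie side by side in the genome. In RefSeq's GRCm38.p6 annotation, 9 Ugt1a genes overlap on chromosome 1, and 7 of them, Ugt1a1 included, end at the same position. Genes of this locus join a first exon of their own to common last exons. A cluster on chromosome 5 holds 10 Ugt2 and 3 Sult1 genes, among them Ugt2b1, Ugt2b36, Ugt2b5 and Sult1d1. Which exon a Ugt1a6b or Ugt1a6a probe covers is not given in the sources used here, and near-identical copies can bind one probe. Values of these genes are therefore uncertain as to which transcript they measure.

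The promoters show which of these genes carry, close to their start, the short motifs bound by AhR and Nrf2. The 250 bases before the start were read from RefSeq's GRCm38.p6 table for 9 of the 10 genes, all but Ugt1a6b. The AhR core motif GCGTG was searched on both strands, and was found in 2 of the 9 windows, against 28.2% of 32851 promoters. The Nrf2 core motif TGACNNNGC, also searched on both strands, was found in 1 of the 9, against 10.2% of promoters. The windows of Ugdh and Sult1d1 are printed because they are the ones with a match, and that of Ugt1a6a because it is the Ugt1a6 gene that has a window. Capitals mark the matches on either strand.
Ugdh, chr5:65435843-65436092, minus strand: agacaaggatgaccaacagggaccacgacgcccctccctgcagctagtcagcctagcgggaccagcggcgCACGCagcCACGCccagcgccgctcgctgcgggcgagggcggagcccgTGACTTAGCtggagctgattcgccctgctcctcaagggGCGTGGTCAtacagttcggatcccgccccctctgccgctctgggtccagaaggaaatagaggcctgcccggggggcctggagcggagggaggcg
Sult1d1, chr5:87569007-87569256, minus strand: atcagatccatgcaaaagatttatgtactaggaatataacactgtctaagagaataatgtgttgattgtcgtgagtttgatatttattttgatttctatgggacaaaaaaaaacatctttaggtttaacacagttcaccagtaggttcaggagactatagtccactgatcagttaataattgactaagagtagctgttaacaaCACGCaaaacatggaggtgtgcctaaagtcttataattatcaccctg
Ugt1a6a, chr1:88134559-88134808, plus strand: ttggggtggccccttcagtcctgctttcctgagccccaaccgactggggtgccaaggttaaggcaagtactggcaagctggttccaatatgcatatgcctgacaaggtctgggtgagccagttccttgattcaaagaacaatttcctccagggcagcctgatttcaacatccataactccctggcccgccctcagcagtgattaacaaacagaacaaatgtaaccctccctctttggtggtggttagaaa
Ugdh held 3 matches to GCGTG and 2 to TGACNNNGC, and the GCGTG nearest to the start lies inside a TGACNNNGC match on the other strand. Sult1d1 held 1 match to GCGTG. Such a match is a description of the letters and not a binding site.

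Detection set what could be read from each probe. Liver signal was well above background on all 19 arrays for 10 of the 12 probes. The Ugt1a6a probe reached it on 13 arrays, which were 3 of 5 controls, 4 of 5 animals at 6.25 mg/kg, 1 of 4 at 12.5 mg/kg and 5 of 5 at 25 mg/kg. Sult1d1 probe 2 reached it on 3 arrays and was not tested, so 11 probes entered the fits. The reference was well above background on all 19 arrays for 8 probes, on 15 for Ugt2b5, and on 1 for Ugt2b1 and both Sult1d1 probes. For the Ugt2b1 and Sult1d1 probes the ratio therefore sets liver against a reference near its background. No spot of these probes was saturated. Genes with 2 tested probes are given as probe 1, the brighter in liver, and probe 2.

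Arrays lay on 3 slides that each held all 4 groups. Slide 1, scanned 7 days after the others, carried 2 controls and 1 animal of each other dose. Liver signal was well above background for 35.5% to 56.7% of spots per array, and the median was lowest at 12.5 mg/kg, 38.3%, against 46.5% in controls. All 8 hepatocyte markers (Alb, Ttr, Apoa1, Apob, Tat, Cps1, Cyp2e1 and Fgb) were above background on all arrays, with a mean log2 ratio of 6.78 to 8.71 in each animal. Of the other marker lists, Kupffer (2.65 to 4.85), endothelial (2.35 to 3.46), erythroid (4.91 to 6.52) and gut genes (2.92 to 4.13) had means above 0 on every array, with 2 of 4 genes measured in each of the last pair. Cholangiocyte, stellate and lymphocyte lists had means below 0 on every array. Of the kidney and pancreas lists 1 gene each was measured.

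**Figure D1:**
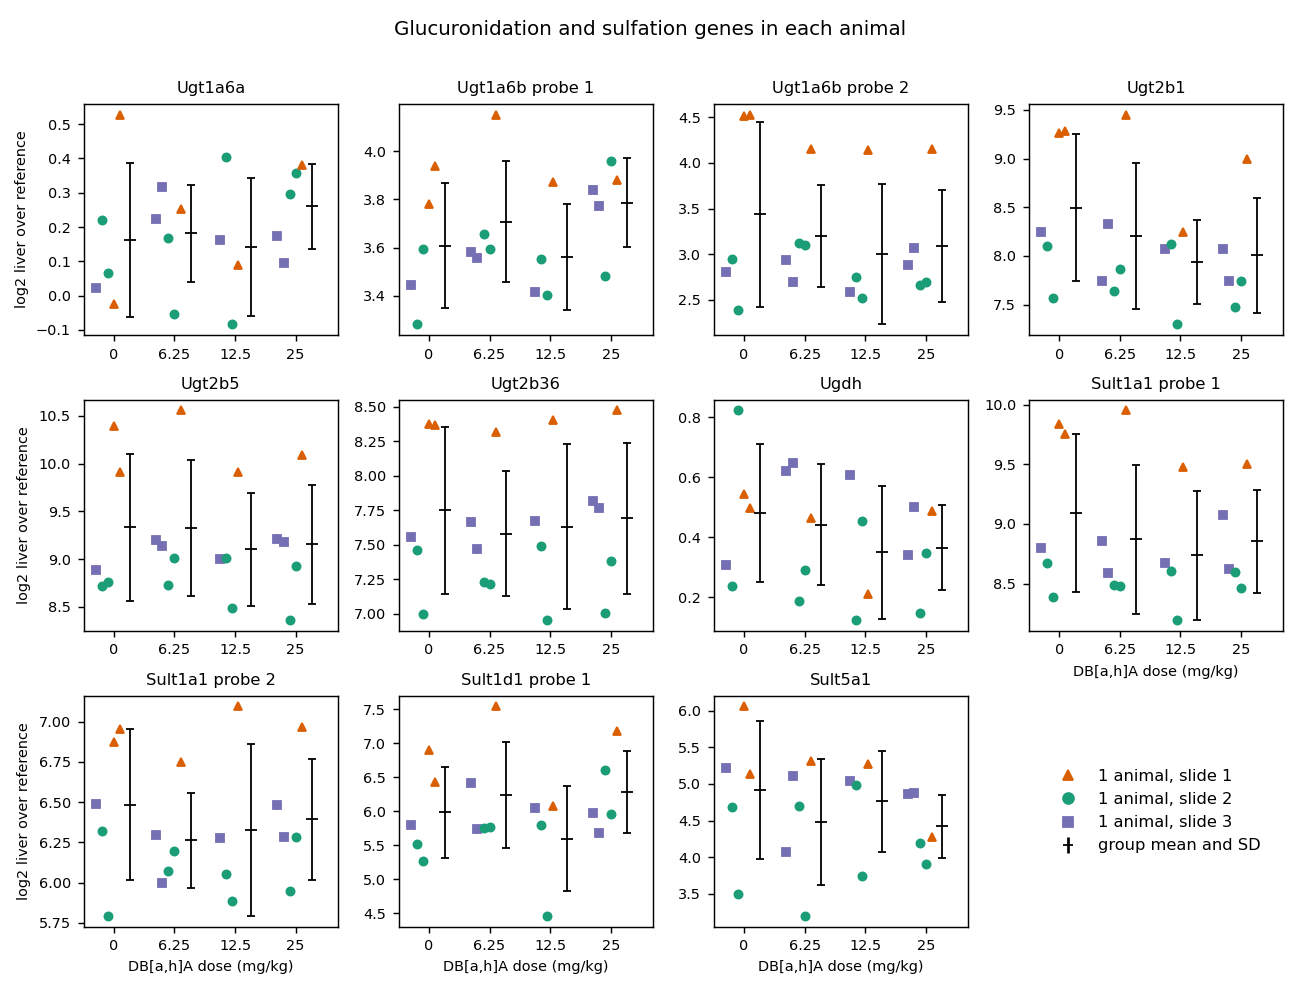
Log2 ratio of liver over reference (vertical axis, a separate range in each panel) by DB[a,h]A dose in mg/kg, 1 point per animal (n = 5, 5, 4 and 5), with the group mean and SD as a bar and the slide as colour and shape. In 5 of the 11 panels all 5 animals of slide 1 lie above the other 14, and at no dose do the animals separate from the controls.

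Ugt1a6a and Ugt1a6b conjugate flat phenols. Ugt1a6b probe 1 stood at 3.45, 3.28, 3.59, 3.78 and 3.94 in the 5 controls. At 25 mg/kg it stood at 3.84, 3.77, 3.48, 3.96 and 3.88. At that dose 4 of 5 animals stood above the control mean, and 1 of 5 above the highest control. At 6.25 mg/kg the values were 3.58, 3.56, 3.66, 3.59 and 4.15, and at 12.5 mg/kg 3.42, 3.55, 3.40 and 3.87. The mean at 12.5 mg/kg, 3.56 ± 0.22 (SD, n = 4), was close to the control mean of 3.61 ± 0.26 (SD, n = 5). The mean at 25 mg/kg was 3.79 ± 0.18 (SD, n = 5).

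Limma's test gave Ugt1a6b probe 1 a change of 0.18 at 25 mg/kg (SE 0.14, adjusted p = 0.850). With slide as a block the change was 0.26 (95% interval 0.049 to 0.46, limma's adjusted p = 0.229 over 29415 probes). With the block it was the only one of the 9 genes with an unadjusted p under 0.05 at 25 mg/kg, a level that 16.3% of 13812 genes reached, so 1 of 9 is no more than the background. Within slides 1, 2 and 3 the animals at 25 mg/kg stood 0.022, 0.28 and 0.36 above the controls of the same slide. The block gave 0.18 at 6.25 mg/kg (95% interval -0.029 to 0.38), and at 12.5 mg/kg 0.010 (95% interval -0.21 to 0.23).

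The other Ugt1a6b probe did not follow the first. Probe 2 stood at 2.81, 2.95, 2.38, 4.51 and 4.53 in controls, and at 2.88, 3.06, 2.67, 2.69 and 4.15 at 25 mg/kg. The 5 animals on slide 1 stood at 4.14 or more over all doses, and the other 14 at 3.12 or less. Its change at 25 mg/kg was -0.35 (SE 0.43) without the block and -0.052 (SE 0.13) with it. Over 19 arrays the 2 probes correlated at r = 0.67, and at r = 0.087 once each slide's mean was taken away. Averaged over both probes and without the block, the Ugt1a6b change at 25 mg/kg was -0.084. The average was not fitted with the block, where probe 1 had 0.255 and probe 2 -0.052.

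Ugt1a6a was close to the detection limit. Controls stood at 0.022, 0.22, 0.065, -0.023 and 0.53, and animals at 25 mg/kg at 0.17, 0.094, 0.30, 0.36 and 0.38. All 5 animals at 25 mg/kg fell inside the control range. The change was 0.098 (95% interval -0.15 to 0.34, limma's adjusted p = 0.893), and 0.12 with slide as a block. It was 0.13, 0.18 and 0.11 within slides 1, 2 and 3, each less than the control SD of 0.22.

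The Ugt2b enzymes act mainly on steroids and bile acids, and on some drugs. Ugt2b1 stood at 8.25, 8.10, 7.57, 9.26 and 9.29 in controls, and at 8.07, 7.75, 7.48, 7.74 and 8.99 at 25 mg/kg. The animal on slide 1 was the highest at 25 mg/kg, as the 2 on slide 1 were among controls. The change was -0.49 (SE 0.38, limma's adjusted p = 0.843) and -0.29 with the block (95% interval -0.69 to 0.10, limma's adjusted p = 0.508). On slides 1, 2 and 3 the differences were -0.28, -0.23 and -0.34. Animals at 12.5 mg/kg had 8.08, 8.12, 7.30 and 8.25. The change there was -0.56 (SE 0.40), and -0.38 with the block (95% interval -0.80 to 0.032, limma's adjusted p = 0.562). Slide 1, with a single animal at 12.5 mg/kg (8.25, against a control mean of 9.27), gave -1.03, and slides 2 and 3 gave -0.13 and -0.17. This animal had the only array with the Ugt2b1 reference above background, a log2 signal of 7.45 against 6.27 and 6.03 in the slide 1 controls. Its liver signal, scaled by quantiles between arrays, was 13.63 and higher than in both of these controls (13.25 and 13.47), opposite to the ratio. In the liver channel alone the change was -0.12 at 12.5 mg/kg, -0.33 at 25 mg/kg and -0.25 at 6.25 mg/kg. The block gave -0.096 at 6.25 mg/kg (95% interval -0.49 to 0.30).

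Ugt2b5 stood at 8.89, 8.72, 8.76, 10.40 and 9.91 in controls and at 9.21, 9.18, 8.36, 8.93 and 10.09 at 25 mg/kg. The 2 groups overlapped over nearly their whole range. Its change was -0.18 (SE 0.39) without and 0.041 (SE 0.13) with the block, so its sign turned. It was -0.0070 at 6.25 mg/kg without and 0.21 with the block (95% interval -0.066 to 0.49).

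Ugt2b36 ranged from 7.00 to 8.38 in controls and from 7.01 to 8.47 at 25 mg/kg. Its 95% interval with the block, taken as a fold, ran from 0.906 to 1.24. Its changes within slides at the 3 doses lay between -0.058 and 0.24. Of the 11 tested probes it had the smallest share of variance that went with dose, 1.77%.

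Ugdh is the step that supplies UDP-glucuronic acid. Controls stood at 0.31, 0.24, 0.82, 0.54 and 0.50, and animals at 25 mg/kg at 0.34, 0.50, 0.15, 0.35 and 0.49. Only 1 animal at 25 mg/kg was below the lowest control. The change was -0.12 (SE 0.13, limma's adjusted p = 0.886), and -0.13 with the block. As a fold the interval with the block ran from 0.767 to 1.09. Within slides 1 and 2 the change was -0.033 and -0.28, and on slide 3, with 1 control, 0.12. The changes at 12.5 and 6.25 mg/kg were -0.13 (SE 0.14) and -0.039 (SE 0.13). Slide went with 17.2% of the Ugdh variance.

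Sult1a1 is the main phenol sulfotransferase of liver. Its probe 1 stood at 8.80, 8.67, 8.39, 9.84 and 9.76 in controls and at 9.08, 8.63, 8.60, 8.46 and 9.50 at 25 mg/kg. The highest values of both groups came from slide 1, and all animals at 25 mg/kg lay inside the control range. The change was -0.24 (SE 0.33) without and -0.051 (SE 0.11) with the block. Probe 2 gave -0.092 and 0.031. The 2 probes correlated at r = 0.90 over 19 arrays as ratios and at 0.27 with slide means taken away. In the liver channel alone, with slide means taken away, they correlated at 0.89.

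Sult1d1 sulfates catecholamines and other small phenols. Controls stood at 5.80, 5.52, 5.27, 6.90 and 6.43 on probe 1, and animals at 25 mg/kg at 5.97, 5.68, 6.61, 5.96 and 7.18. Animals at 6.25 mg/kg had 6.42, 5.74, 5.75, 5.77 and 7.54, and at 12.5 mg/kg 6.05, 5.80, 4.46 and 6.07. The means at 6.25 and 25 mg/kg, 6.24 ± 0.78 and 6.28 ± 0.61 (SD, n = 5 each), lay above the control mean of 5.98 ± 0.67, and the mean at 12.5 mg/kg, 5.60 ± 0.77 (SD, n = 4), lay below it. The lowest value, 4.46, came from the only array with the reference above background for this probe, a log2 signal of 6.73 against 5.85 to 6.57 in the others of its group. Its liver signal scaled by quantiles was 10.79, against 10.89 to 11.17 in these. The change at 12.5 mg/kg was -0.0099 in the liver channel alone. With slide as a block the change was 0.50 at 25 mg/kg (95% interval -0.042 to 1.04, limma's adjusted p = 0.391). It was 0.46 at 6.25 mg/kg (95% interval -0.079 to 1.01) and -0.21 at 12.5 mg/kg. Within slides 1, 2 and 3 the animals at 25 mg/kg stood 0.51, 0.89 and 0.024 above their controls. Over all doses at once the block gave an adjusted p = 0.329 by limma's F test, the smallest of the 9 genes. In the liver channel with the block, where the reference plays no part, the change at 25 mg/kg was 0.34 (limma's adjusted p = 0.319).

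Sult5a1, a member of the family with little known of its substrates, varied most between animals. Controls stood at 5.22, 4.68, 3.49, 6.06 and 5.13, and animals at 25 mg/kg at 4.87, 4.88, 4.19, 3.91 and 4.27. All animals at 25 mg/kg fell inside the control range. The change was -0.49 (SE 0.44, limma's adjusted p = 0.858), and -0.45 with the block (95% interval -1.14 to 0.25). The difference was -1.33 on slide 1, -0.036 on slide 2 and -0.35 on slide 3. Slide 1 held a single animal at 25 mg/kg, at 4.27, against controls at 6.06 and 5.13. With each array left out in turn, the change at 25 mg/kg ran from -0.85 to -0.21 without the block. With the block it ran from -0.69 to -0.18. Its SD within dose and slide was 0.59, higher than in 98.4% of 13812 named genes, whose median was 0.17. Its liver signal ranged over 2.61 log2 units, and slide went with 8.61% of the variance of that signal.

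**Figure D2:**
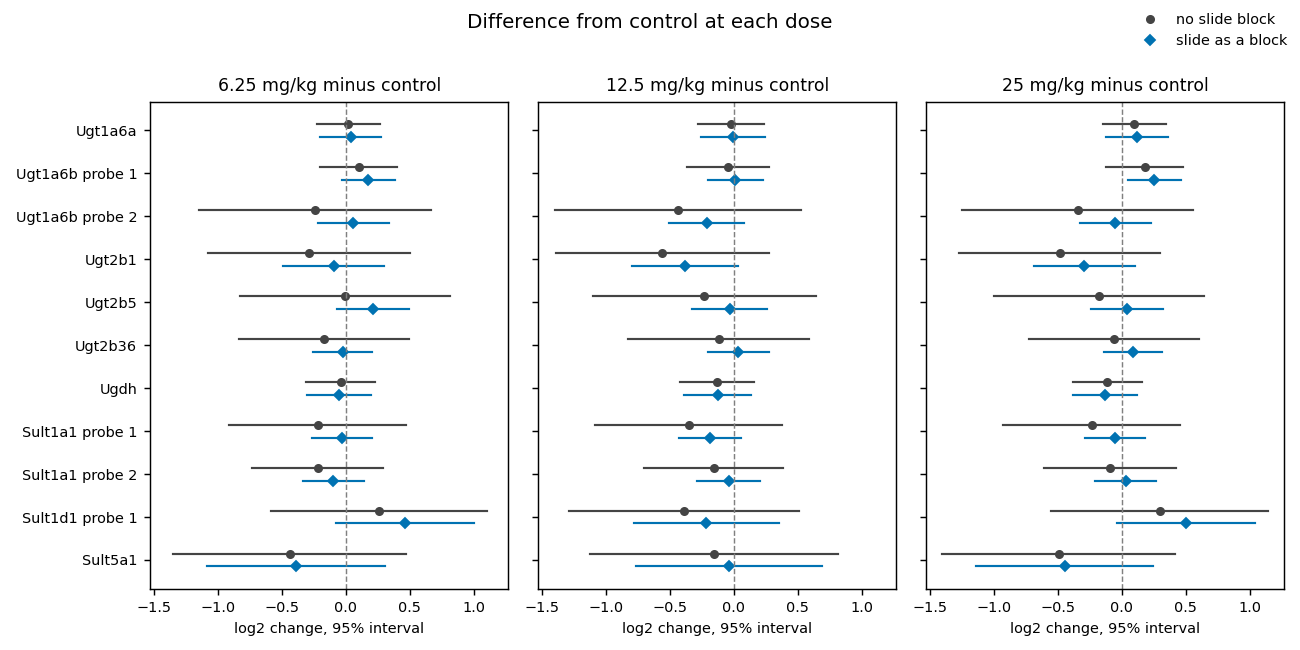
Log2 change from control at 6.25, 12.5 and 25 mg/kg (horizontal axis) for the 11 tested probes, as point and 95% interval from limma without (circles) and with (diamonds) slide as a block. The intervals contain 0 for each probe, except Ugt1a6b probe 1 at 25 mg/kg with the block (0.049 to 0.46).

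Counted together, 0 of 9 genes passed limma's adjusted p under 0.05 at 25 mg/kg, against 0.0578% of 29415 probes (17 probes), or 0.809% with slide as a block (238). At 12.5 mg/kg 0 of 9 passed, against 0% of probes (0), or 0.0068% with the block. At 6.25 mg/kg 0 of 9 passed limma's test, against 0% of probes without and with the block. For the trend over dose 0 of 9 passed, against 0.0204% of probes (0.241% with the block), and for any dose 0 of 9, against 0.0102% (0.0748% with the block). At an unadjusted p under 0.05 the 9 genes gave 0 calls in each comparison without the block. With it they gave 1 at 25 mg/kg, 1 for any dose and 0 elsewhere. Without the block 7.37%, 4.21% and 5.57% of all probes had an unadjusted p under 0.05 at 25, 12.5 and 6.25 mg/kg. With it the shares were 14.6%, 9.5% and 11.7%, and 14.2% for any dose. Read against this background, these counts do not set the 9 genes apart.

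Groups that do not overlap were likewise rare. They made up 1.74% of probes at 25 mg/kg, 1.43% at 12.5 mg/kg and 0.962% at 6.25 mg/kg, and none of the 12 probes was among them.

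Some directions differed between the fits without and with slide as a block. At 12.5 mg/kg all 9 genes stood lower than control, with a median of -0.16, and 46% of 13812 genes were higher. With the block 7 of the 9 were lower and the median was -0.038. All 8 hepatocyte markers were lower at 12.5 mg/kg too, with a median of -0.27, and -0.074 with the block. The share of spots well above background in liver had its lowest median, 38.3%, in that group. The part of hepatocyte RNA, signal and slide in these directions was not tested, and fewer hepatocytes cannot be told apart from less RNA per cell. At 25 mg/kg 3 of 9 were higher and the median was -0.12, against -0.0077 over all genes, and 5 of 9 were higher with a median of 0.041 with the block. All 8 hepatocyte markers were lower there without the block and 6 with it. At 6.25 mg/kg 3 of 9 were higher without the block and 4 with it. There 7 of 8 hepatocyte markers were lower, with a median of -0.28 (-0.096 with the block). The share of spots well above background in liver had a median of 49.0% there, against 48.1% at 25 mg/kg and 46.5% in controls. The ranges overlapped, 42.9% to 54.8% at 6.25 mg/kg and 36.5% to 56.7% in controls.

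Precision improved with the block. The median SE of the 9 genes at 25 mg/kg was 0.33 without and 0.12 with it, while that of all genes was 0.15 and 0.11. Without the block the intervals of Ugt2b1 (0.412 to 1.23 as a fold) and Sult5a1 (0.377 to 1.34) left room for a fall beyond 2-fold. So did those of Ugt1a6b probe 2 (0.419 to 1.47) and, barely, Ugt2b5 (0.499 to 1.56). With the block such room stayed only for Sult5a1 (0.453 to 1.19). With the block Ugt1a6a ran from 0.919 to 1.28, Ugt1a6b probe 1 from 1.03 to 1.38 and Sult1d1 from 0.971 to 2.06.

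**Figure D3:**
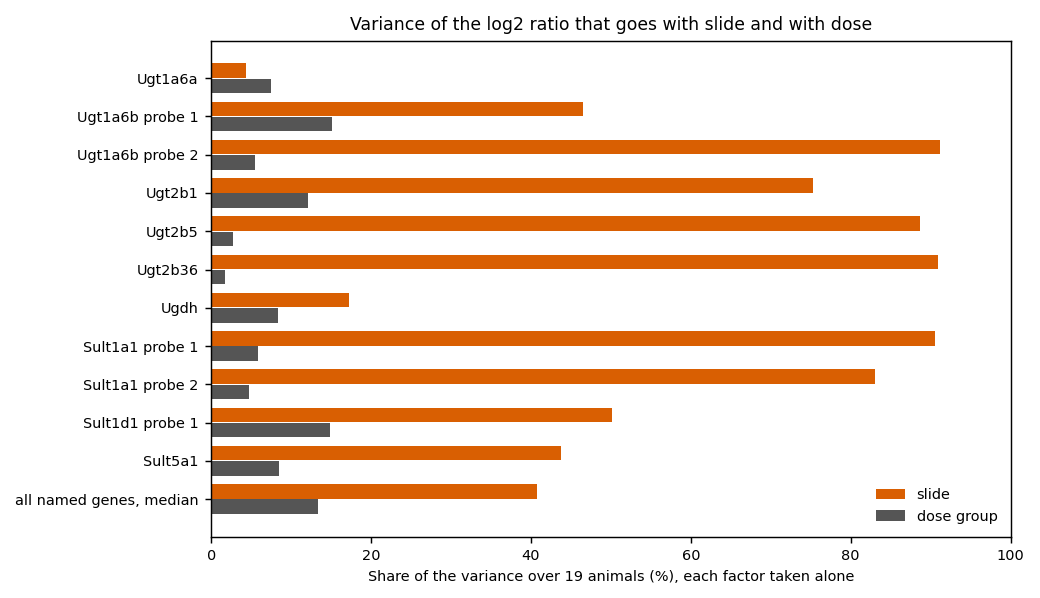
Share of the variance over 19 animals in percent (horizontal axis, each factor taken alone) that went with slide and with dose group, for the 11 tested probes and as the median of all named genes. Slide took 4.33% for Ugt1a6a and 91.2% for Ugt1a6b probe 2, and dose took at most 15.1%.

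Slide went with more of the variance than dose in 10 of the 11 probes. It took 91.2% for Ugt1a6b probe 2, 90.9% for Ugt2b36, 90.5% for Sult1a1 probe 1, 88.7% for Ugt2b5 and 75.3% for Ugt2b1. The median over all named genes was 40.8%. Dose took 1.77% to 15.1%, against a median of 13.3%. For Ugt1a6b probe 2, Ugt2b5, Ugt2b36 and both Sult1a1 probes, all 5 animals of slide 1 stood above the other 14. The share in the liver channel alone was lower for 9 of the 11 probes, at 76.4% for Ugt1a6b probe 2, 42.3% for Ugt2b5 and 8.51% for Ugt2b36. It was higher there for Ugt1a6a (9.03%) and Ugdh (24.6%). The liver channel was scaled by quantiles between arrays and the ratios were not scaled between arrays. The 2 shares therefore differ in processing as well as in the reference.

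Ratios of the 9 genes were not closely correlated between animals. With slide means taken away, the 36 pairs of the 9 genes had correlations from -0.45 to 0.58 over 19 arrays, with a median of 0.25, and 26 were positive. All pairs share arrays and reference, and pairs of other genes were not compared. Even the 2 probes of Sult1a1 gave only 0.27 as ratios, against 0.89 in the liver channel. Low values therefore cannot show that genes moved apart. The neighbours Ugt2b36 and Ugt2b5 gave 0.41, and 0.71 in the liver channel. As ratios, Ugt2b1 with Ugt2b5 gave more, 0.495. In the liver channel the other pairs among Ugt2b1, Ugt2b5, Ugt2b36 and Sult1d1 probe 1, of the same cluster, did not reach 0.71. Their liver-channel values ran from -0.525 (Ugt2b1 with Sult1d1) to 0.209 (Ugt2b1 with Ugt2b36). Ugt2b5 with Ugdh, which is not one of the cluster's Ugt2 and Sult1 genes, gave 0.682.

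For 4 genes the most similar profiles among 13541 genes were sought over 19 arrays with slide means taken away. Sult1d1 was nearest to the peptidase gene Enpep (r = 0.949, and 0.834 in the liver channel), then Pcmtd1 (0.877) and the potassium channel gene Kcnn2 (0.849). The reference was above background on 5 arrays for Enpep and 0 for Kcnn2, so these ratios share a reference near background with Sult1d1. Ugdh was nearest to Ptpn21 (0.838), Inip (0.821) and Arid1b (0.797), with 0.769, 0.804 and 0.572 in the liver channel. Ugt1a6b was nearest to the methyltransferase gene Inmt (0.836), Fubp3 (0.816) and Auh (0.816), with 0.509, 0.450 and 0.554 in the liver channel. Ugt2b1 was nearest to Creb3 (0.824), Tas2r118 (0.807) and Cad (0.775), and these fell to 0.238, 0.457 and 0.357 in the liver channel.

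The rest of both pathways was read at 25 mg/kg from lists of related genes, and none passed in any list, without or with the block. Of 16 other UGT genes 10 were on the array and 9 were measured. Of these 3 were higher and 6 lower (median -0.057), and 6 higher and 3 lower with the block (median 0.091). Ugt2a1 had 0.28 (SE 0.10), Ugt2b37 -0.26 (SE 0.18) and Ugt2b34 0.19 (SE 0.17), with limma's adjusted p = 0.465, 0.826 and 0.857. Ugt1a10, which overlaps the Ugt1a6 genes, had 0.11 (SE 0.38), and 0.40 with the block (SE 0.16, limma's adjusted p = 0.258). Once slide means were taken away, it correlated with Ugt1a6b probe 1 at 0.334, with probe 2 at 0.232 and with Ugt1a6a at -0.296.

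For UDP-glucuronic acid, 7 of 7 genes were measured, 2 higher and 5 lower (median -0.057), and 3 higher and 4 lower with the block (median -0.011). Uxs1, which turns UDP-glucuronic acid into UDP-xylose, had -0.26 (SE 0.093, limma's adjusted p = 0.455, and 0.155 with the block). Ugp2, which makes UDP-glucose, had 0.30 (SE 0.16). Pgm2, a phosphoglucomutase above background on 5 arrays, had 0.30 (SE 0.28).

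Of 20 other SULT genes 19 were on the array and 7 were measured, 5 higher and 2 lower (median 0.014), and 4 higher and 3 lower with the block (median 0.18). Sult2a7, of the hydroxysteroid sulfotransferases, had 1.21 (SE 0.47, limma's adjusted p = 0.524). With the block it had 1.19 (SE 0.32, limma's adjusted p = 0.0848), the largest change of any gene in these lists. Tpst2, which sulfates tyrosines of proteins, had -0.27 (SE 0.16), and Sult2a8 -0.34 (SE 0.36). Sult1c1, Sult2a1, Sult2a2, Sult2a3, Sult2a4, Sult3a1, Sult6b1, Sult6b2 and Tpst1 were well above background on 0 of 19 arrays.

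PAPS supply and removal gave 7 measured genes from 10 listed symbols, 6 higher and 1 lower (median 0.11), and 5 higher and 2 lower with the block (median 0.14). Papss2, one of the enzymes that make PAPS, had 0.61 (SE 0.23, limma's adjusted p = 0.491), and 0.66 with the block (limma's adjusted p = 0.124). The phosphatase gene Bpnt2 had 0.13 (SE 0.072) and the sulfate transporter gene Slc13a4 0.23 (SE 0.28). Papss1, the other PAPS synthase, had -0.077 (SE 0.31).

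All 11 regulators were measured, 5 higher and 6 lower (median -0.068), and 7 higher and 4 lower with the block (median 0.090). Arnt, the partner of AhR, had 0.48 (SE 0.15, limma's adjusted p = 0.334). Nfe2l2, which encodes Nrf2, had 0.54 (SE 0.21, limma's adjusted p = 0.497), and Keap1, its inhibitor, -0.21 (SE 0.16). With the block Arnt had 0.44, Nfe2l2 0.40 and Keap1 -0.24 (limma's adjusted p = 0.143, 0.162 and 0.33). At limma's unadjusted p under 0.05 the block gave 5 of 11 regulators, against 16.3% of 13812 genes. The list was not tested as a set.

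**Figure D4:**
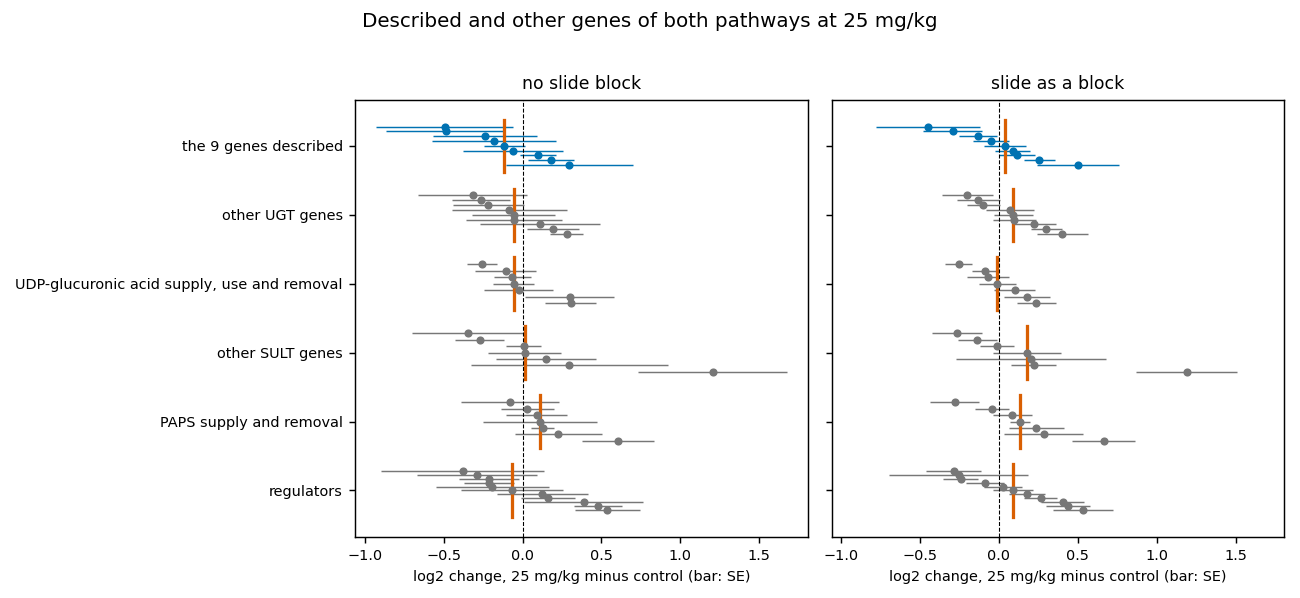
Log2 change at 25 mg/kg against control (horizontal axis) for the 9 genes described and the measured genes of each related list, 1 point per gene with its SE, without (left) and with (right) slide as a block; the vertical bar is the median of the list. Sult2a7 lies farthest from 0, at 1.21 and 1.19.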

How the data were processed

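Per the file headers, the deposited scanner files come from Feature Extraction 10.7.3.1 and give, on a linear scale, median spot and background intensity and a processed intensity (background subtracted, dye normalised). A further deposited table gives log2 ratios of liver over reference; how it was made is not given in the sources used here. Its columns correlated at 0.993 to 0.996 with loess ratios without background subtraction.

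Median intensities were background corrected (normexp, offset 50) and loess normalised within arrays, control spots at weight 0, in limma 3.58.1 (R 4.3.3). For the liver channel alone, the background corrected red intensities were instead scaled by quantiles between arrays. Outlier spots were set to missing (0.132% of values). A probe was kept when over 0.5 of its spots were well above background in liver on at least 4 arrays (29415 of 55681). The kept probe brightest in liver stood for its gene (13812 genes). Symbols came from RefSeq accessions. Group means were fitted over 19 arrays with lmFit and eBayes, two-sided, with Benjamini-Hochberg adjustment over 29415 probes and a threshold of 0.05. The script was tested on simulated data. The same fits with slide as a fixed block are given beside the results. The genes, lists and tests were chosen with earlier results of these data known. Named genes are the 10 listed, the 3 of smallest p in each list at 25 mg/kg, and the 3 most similar genes for Ugt1a6b, Ugt2b1, Ugdh and Sult1d1; Papss1 and Ugt1a10 were added after their values were seen.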

Additional observations from a re-analysis of the deposited data

Results flagged for a closer look

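A single animal stood apart from the rest of its dose group in 6 of 48 groups of 4 or 5 values, by a gap test that chance passes in about 1 of 20 groups. On slide 1 lay 5 of the 6. Ugt1a6b probe 1 stood at 4.15 in 6.25 mg/kg replicate 5, against 3.56 to 3.66 in the others of its group. The same animal had 10.56 for Ugt2b5, against 8.73 to 9.20, and 9.95 for Sult1a1 probe 1, against 8.48 to 8.85. Ugt1a6b probe 2 stood at 4.14 in 12.5 mg/kg replicate 4, against 2.52 to 2.75, and at 4.15 in 25 mg/kg replicate 5, against 2.67 to 3.06. Each of these 3 animals was the only one of its group on slide 1. The sixth was on slide 2: Sult1d1 probe 1 stood at 4.46 in 12.5 mg/kg replicate 3, against 5.80 to 6.07 in the others. On that array alone the reference was above background for this probe (6.73, against 5.85 to 6.57 in the others of its group), and the liver signal scaled by quantiles was 10.79, against 10.89 to 11.17. The part of slide in these values was not tested beyond the fits with slide as a block.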

How the results depend on the processing

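No paired analysis was possible because the labels number the samples over the whole series, so the numbers used here only name animals. In each alternative none of the genes tested passed in the comparisons it was run for: 9 genes, but 8 among probes above background on all 19 arrays. The fit on only the arrays compared gave no trend or any-dose test, and dose as a rank gave only a trend. Among 1320 other values of the 9 genes the smallest adjusted p was 0.121, for Ugt1a6b at 25 mg/kg with slide as a block and without 25 mg/kg replicate 5 (0.34). The sign turned in 167 of the 1320 values, none of them past the threshold, and apart from the settings below the cause was not tested. The turned log2 changes with no background subtraction were Ugt2b5 0.028 at 6.25 mg/kg. With the scanner software's processed signals they were Ugt1a6b 0.097 at 12.5 mg/kg, Ugt2b1 0.12, Ugt2b5 0.15 and Ugdh 0.040 at 6.25 mg/kg. In the authors' deposited log2 ratios they were Ugt1a6b 0.0078 at 12.5 mg/kg, Ugt2b5 0.032 and Ugdh 0.011 at 6.25 mg/kg. In the liver channel alone they were Ugt2b36 0.016 and Sult1a1 0.074 at 25 mg/kg, Ugt1a6a 0.019 and Ugt2b36 0.018 at 12.5 mg/kg, Ugt2b5 0.033 and Ugt2b36 0.026 at 6.25 mg/kg. With slide as a block they were Ugt2b5 0.041 and Ugt2b36 0.087 at 25 mg/kg, Ugt1a6b 0.010 and Ugt2b36 0.035 at 12.5 mg/kg, Ugt2b5 0.21 at 6.25 mg/kg. In the liver channel with the block they were Ugt2b36 0.020 and Sult1a1 0.14 at 25 mg/kg, Ugt1a6a 0.0084, Ugt2b36 0.027, Sult1d1 0.015 and Sult5a1 0.0032 at 12.5 mg/kg, Ugt2b5 0.050, Ugt2b36 0.030 and Sult1a1 0.028 at 6.25 mg/kg. With the mean of a gene's kept probes, fitted without the block only, they were Ugt1a6b -0.084 at 25 mg/kg, Ugt1a6b -0.068 at 6.25 mg/kg. With each array left out in turn, without or with the block, changes took both signs as follows. The range at 25 mg/kg was -0.42 to 0.15 for Ugt2b5, -0.26 to 0.16 for Ugt2b36 and -0.41 to 0.032 for Sult1a1. The range at 12.5 mg/kg was -0.11 to 0.071 for Ugt1a6a, -0.15 to 0.053 for Ugt1a6b, -0.50 to 0.055 for Ugt2b5, -0.38 to 0.13 for Ugt2b36, -0.22 to 0.00075 for Ugdh, -0.57 to 0.053 for Sult1d1 and -0.51 to 0.19 for Sult5a1. The range at 6.25 mg/kg was -0.027 to 0.11 for Ugt1a6a, -0.010 to 0.22 for Ugt1a6b, -0.31 to 0.28 for Ugt2b5, -0.36 to 0.053 for Ugt2b36, -0.16 to 0.066 for Ugdh, -0.49 to 0.018 for Sult1a1 and -0.065 to 0.55 for Sult1d1. Some sizes grew with the scanner software's processed signals, without a turn of sign: Sult1d1 at 12.5 mg/kg from -0.39 to -1.56, Ugt2b1 at 12.5 mg/kg from -0.56 to -1.33, Ugt1a6a from 0.098 to 0.64 at 25 mg/kg and from 0.019 to 0.37 at 6.25 mg/kg. The changes at 12.5 mg/kg were smaller in the liver channel alone, -0.0099 for Sult1d1 and -0.12 for Ugt2b1.

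Counts over all probes moved more. At 25 mg/kg, where 17 probes passed, 83 passed in the liver channel alone, 10 with no filter, 238 with slide as a block, 48 with only the arrays of the groups compared, 33 with a trended robust prior and 262 in the liver channel with the block. At 12.5 mg/kg (0 probes) the counts were 2 in the liver channel, 3 among probes above background on all 19 arrays, 2 with the block, 6 with only the arrays compared and 2 in the liver channel with the block. At 6.25 mg/kg (0) the liver channel with the block gave 1. For the trend (6) they were 2 with processed signals, 34 in the liver channel, 2 with no filter, 71 with the block, 27 with dose as a rank and 46 in the liver channel with the block. For any dose (3) they were 0 with no background subtraction, in the authors' deposited log2 ratios, with no filter and on all 19 arrays, 9 with processed signals, 11 in the liver channel, 22 with the block and 16 in the liver channel with the block. Leaving out each array gave 0 (without 25 mg/kg replicate 1) to 67 (without 6.25 mg/kg replicate 5) at 25 mg/kg, and with the block 25 (without 0 mg/kg replicate 1) to 320 (without 12.5 mg/kg replicate 1). It gave 0 to 5 at 12.5 mg/kg (0 to 15 with the block), 0 to 0 at 6.25 mg/kg (0 to 19), 0 to 83 for the trend (4 to 263) and 0 to 12 for any dose (0 to 102). The liver channel with the block, leaving out arrays with the block and the liver-channel correlations were chosen after seeing the data.

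Each gene rests on 1 or 2 probes and 4 or 5 animals per dose. The reference was near background for Ugt2b1 and Sult1d1, and the liver signal for Ugt1a6a.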
